A study of Rattus norvegicus with 6 samples.

Results

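The genes described here are the enzymes that write and erase marks on histones and DNA in rat rheumatoid arthritis fibroblast-like synoviocytes (RA-FLS, the fibroblasts that line the joint), measured by bulk RNA-seq. Members were the protein-coding genes named as histone deacetylases (Hdac), sirtuins (Sirt), DNA methyltransferases (Dnmt), TET dioxygenases, lysine demethylases (Kdm), the lysine methyltransferase families Kmt2 and Kmt5, lysine acetyltransferases (Kat) and the core of Polycomb repressive complex 2, PRC2 (Ezh1, Ezh2, Eed and Suz12). The names Kdm5c, Kdm5d and Kdm6a were outside the rule. The rule used names and no measured value, and it found 59 of the 34156 genes in the deposited count table, spread over 18 chromosomes. Both groups were wild type RA-FLS bought from a cell supplier. The TNF-α group (3 libraries) received 10 ng/mL TNF-α, an inflammatory cytokine, and the TNF-α+EMO group (3 libraries) received the same TNF-α together with 80 μmol/L emodin (EMO), an anthraquinone of rhubarb. No group without TNF-α was analysed here, so every value below contrasts EMO on a background of TNF-α. The labels give day 5 as the time, whereas the methods give 24 h of treatment. The study's methods call the 3 libraries of a group biological replicates, and the sources used here do not say whether they came from separate cultures, so p-values measure only the spread between these libraries.

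Histone acetyltransferases place acetyl groups on histone tails, which goes with open chromatin, and histone deacetylases remove them. Sirtuins are a separate deacetylase family that consumes NAD and acts in the nucleus, the cytosol and the mitochondria. Methyltransferases of the Kmt2 family mark promoters and enhancers of active genes, PRC2 places a repressive mark on histone H3, and Kdm enzymes remove methyl groups from histone lysines. Dnmt enzymes methylate cytosine in CpG dinucleotides, and Tet enzymes oxidise the methyl group as the first step of its removal. In synovial fibroblasts of rheumatoid arthritis these enzymes are studied because the cells keep an altered DNA methylation and histone pattern in culture.

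The libraries held 16813322 to 17794455 counts, and the test covered the 13614 genes that reached 10 counts in 3 or more libraries. Members took 0.426% to 0.44% of the counts with TNF-α alone and 0.334% to 0.35% with EMO. Of 10 markers of FLS, 9 were in the table and 6 were tested, and these 6 were lower with EMO, with a summed RPKM (reads per kilobase of gene length, scaled to library size) of 3190 to 3410 without EMO and 1010 to 1090 with it. Thy1, Prg4 and Pdpn, defining markers of synovial fibroblasts, had at most 7 counts in any TNF-α library and were at 0 with EMO. Of the macrophage markers, Ptprc, Csf1r and Adgre1 had at most 5 counts in any library, and the summed RPKM of that list was 43.2 to 46.3 against 28.6 to 30.9. Of its 3 tested markers Cd14 was lower (log2 fold change -1.10), while Cd68 (0.75) and Itgam (4.78, at most 14 counts in any library) were higher. The endothelial and lymphocyte lists each summed to under 1 RPKM in every library, and the epithelial sum of 297 to 322 against 58.7 to 68.8 RPKM came from Krt8, with Epcam at 0. The part of these differences in the values below was not tested, and in bulk RNA fewer cells of a type and less RNA per cell cannot be told apart.

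Most sirtuins (5 of 6) and Kat acetyltransferases (5 of 7) were higher with EMO, whereas most deacetylases of the other classes, 2 of 3 tested DNA methyltransferases, both tested Tet enzymes and most Kmt2 and Kmt5 methyltransferases were lower. With a correction for gene length, described below, Tet2 was no longer called, and Kmt2c and Kmt2d were called higher. Most Kmt2 and Kmt5 methyltransferases were then not lower, since Kmt5b and Kmt5c were called higher too and only Kmt2a, Kmt2b, Kmt2e and Kmt5a lower. Of the 59 members, 54 passed the filter on low counts. At an adjusted p under 0.05 by edgeR, 19 of them (35.2%) were higher and 29 (53.7%) lower with EMO, where 39.4% of all tested genes were higher and 41.4% lower. With an absolute log2 fold change over 1 required as well (DEGs), 5 members (9.26%) were higher and 15 (27.8%) lower, and the same thresholds called 19.5% of all tested genes higher and 27.8% lower. The share of lower DEGs was thus that of all genes, and the share of higher DEGs was below it. The groups were apart for 49 members, and over all tested genes this was so for 82.9%. The median log2 fold change (TNF-α+EMO over TNF-α, here and below) was -0.44 over the tested members and -0.01 over all tested genes. With the correction for gene length these medians were 0.11 and 0.059. In size the members moved somewhat less than other genes, with a median absolute log2 fold change of 0.762 against 0.957.

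**Figure D1:**
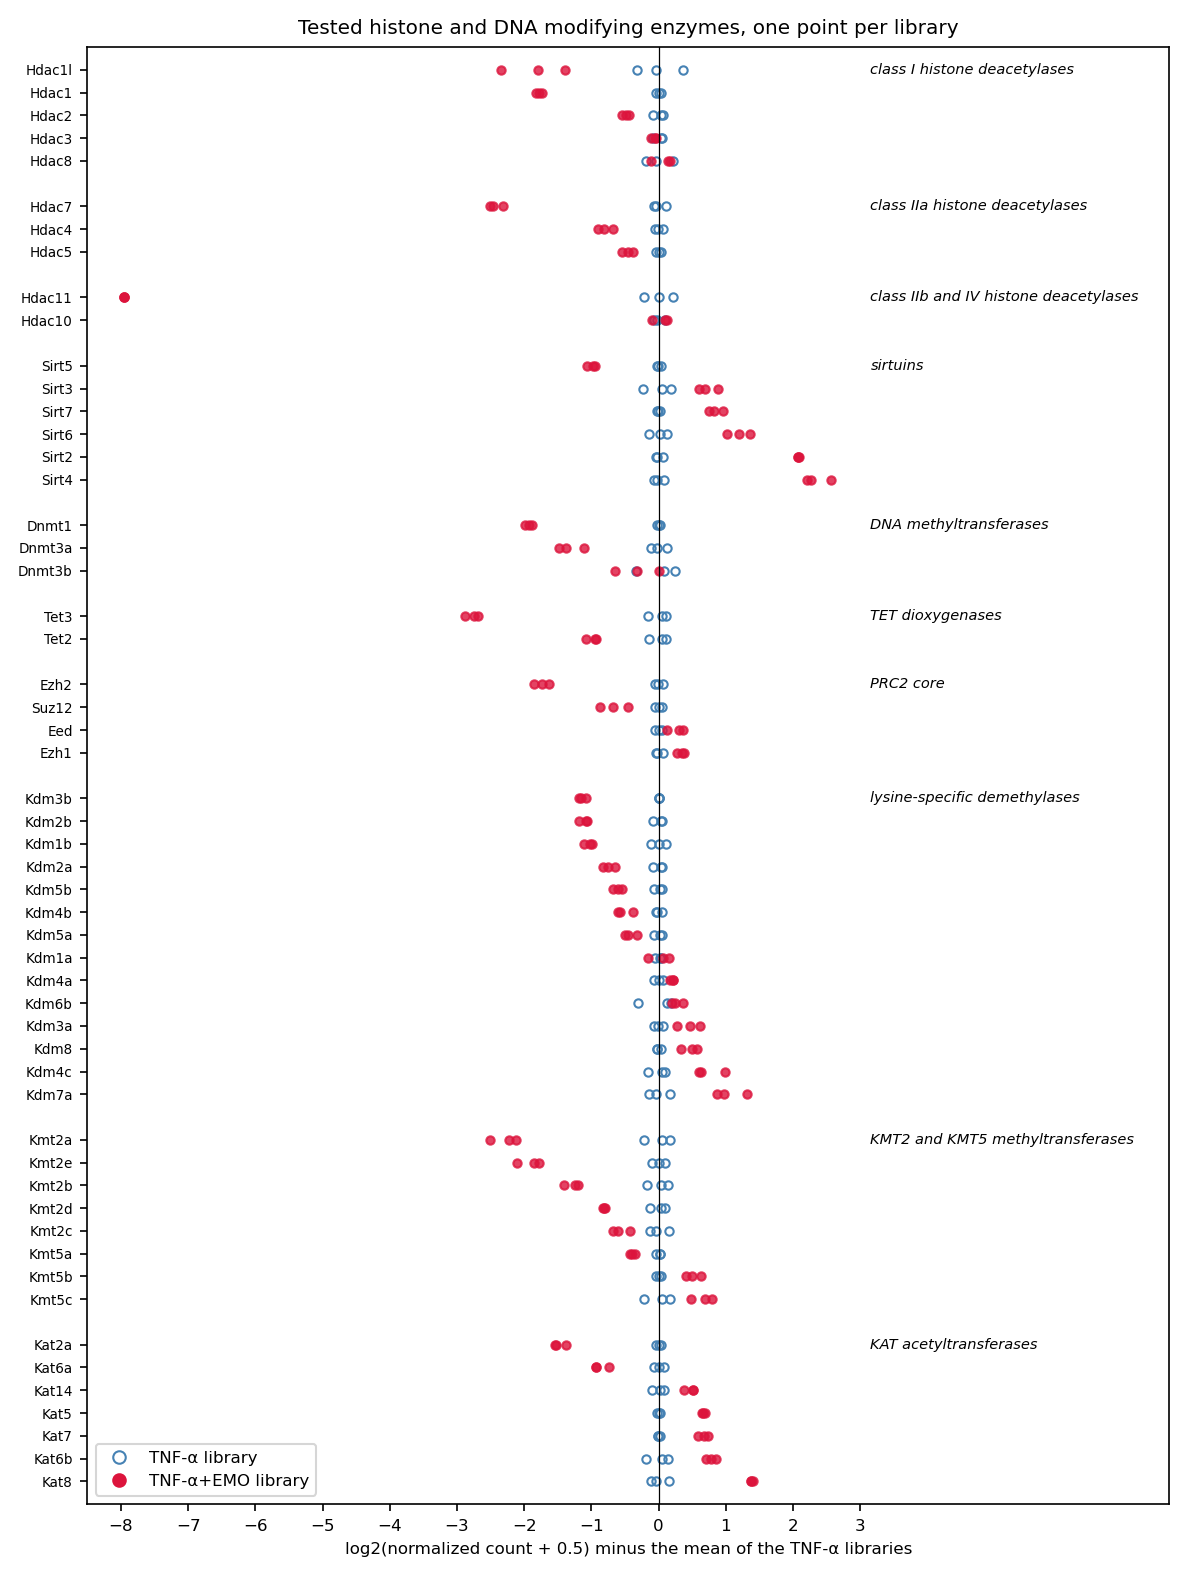
Each row is 1 of the 54 tested members, grouped by role, and each point is 1 library, with log2 of the normalized count plus 0.5 minus the mean of the 3 TNF-α libraries on the x axis (open blue: TNF-α, filled red: TNF-α+EMO). Hdac11 lies far to the left because it had no read in the TNF-α+EMO libraries, Sirt2 and Sirt4 lie farthest to the right, and Hdac3, Hdac8, Hdac10, Dnmt3b and Kdm1a overlap between the groups.

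The promoters of 4 members are shown because these genes lie near the ends of the range of change and have a single annotated start: Hdac7 and Dnmt1, which were lower with EMO, and Sirt4 and Sirt2, which were higher. The sequences are the 250 bases before the start from RefSeq (build GRCr8), and capitals mark CG dinucleotides, the sites that Dnmt enzymes methylate. Dnmt1 lies at chr8:27762842-27763091 on the minus strand, Hdac7 at chr7:130841018-130841267 on the minus strand, Sirt4 at chr12:46791680-46791929 on the plus strand and Sirt2 at chr1:93181222-93181471 on the plus strand.
Hdac7: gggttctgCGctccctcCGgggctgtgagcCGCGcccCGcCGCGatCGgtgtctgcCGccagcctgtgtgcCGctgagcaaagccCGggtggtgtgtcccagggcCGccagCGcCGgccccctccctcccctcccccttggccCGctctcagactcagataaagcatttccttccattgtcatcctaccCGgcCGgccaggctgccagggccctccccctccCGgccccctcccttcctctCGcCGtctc
Dnmt1: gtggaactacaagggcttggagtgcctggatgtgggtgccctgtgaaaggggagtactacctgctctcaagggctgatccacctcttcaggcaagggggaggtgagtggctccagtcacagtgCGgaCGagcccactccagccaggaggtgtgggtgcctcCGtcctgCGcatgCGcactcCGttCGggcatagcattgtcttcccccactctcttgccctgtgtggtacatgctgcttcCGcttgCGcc
Sirt4: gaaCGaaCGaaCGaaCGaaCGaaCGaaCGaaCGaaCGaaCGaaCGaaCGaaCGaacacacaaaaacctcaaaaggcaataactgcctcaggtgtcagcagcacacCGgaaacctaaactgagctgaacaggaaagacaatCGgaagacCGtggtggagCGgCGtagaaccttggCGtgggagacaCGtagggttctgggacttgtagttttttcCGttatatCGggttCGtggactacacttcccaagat
Sirt2: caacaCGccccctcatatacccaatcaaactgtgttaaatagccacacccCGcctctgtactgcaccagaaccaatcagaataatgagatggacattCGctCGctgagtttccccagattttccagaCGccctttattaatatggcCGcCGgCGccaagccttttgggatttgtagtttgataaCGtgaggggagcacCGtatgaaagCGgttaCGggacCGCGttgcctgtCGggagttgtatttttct
These stretches hold 20 CG dinucleotides for Hdac7, 9 for Dnmt1, 23 for Sirt4 and 15 for Sirt2. In Sirt4 many of them lie in a tandem repeat at the far end of the stretch, and in Dnmt1 they lie in the part nearer the start.

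Among class I deacetylases, which include Hdac1 and Hdac2 of the Sin3 and NuRD corepressor complexes, 3 of 5 members were lower and 2 were not called. Hdac1 (chr5:147716664-147743723, minus strand, build Rnor_6.0, as for all gene positions below) had 2742, 2595 and 2678 normalized counts with TNF-α (replicates 1, 2 and 3, as in every such series below) and 777, 756 and 801 with EMO, and its log2 fold change was -1.78 (SE 0.06, adjusted p = 5.1e-10). Every EMO library was thus far below every TNF-α library. Hdac2, its close homologue, had 1741, 1574 and 1707 against 1230, 1197 and 1150 normalized counts and fell by 0.49 on the log2 scale (SE 0.07, adjusted p = 4.2e-05). Hdac3, a further class I deacetylase, stayed near its TNF-α level with a log2 fold change of -0.07 (95% interval -0.20 to 0.06, adjusted p = 0.35), and Hdac8 had 0.06 (adjusted p = 0.73). Under some alternatives, given below, Hdac3 was called lower. Hdac1l, a row with 26.3 to 42.9 normalized counts with TNF-α and 6.11 to 12.4 with EMO, had a log2 fold change of -1.86 (adjusted p = 0.00072). Hdac1l is named as a relative of Hdac1, and RefSeq lists 18 further entries whose symbols name them as Hdac1 pseudogenes. Reads may have been divided among them, but their sequences were not compared. The summed RPKM of class I was 173 ± 6.9 (SD, n = 3) with TNF-α and 102 ± 1.42 with EMO.

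The class IIa enzymes, which move between nucleus and cytosol and bind MEF2 factors, were lower in each of the 3 tested members. Hdac7 (chr7:139281187-139318455, minus strand) carried the largest share of this, with 2778, 2517 and 2449 normalized counts with TNF-α and 454, 469 and 516 with EMO. Its log2 fold change was -2.43 (SE 0.08, adjusted p = 3.3e-10), and the groups lay far apart. Hdac5 had the highest level of the class on the RPKM scale, 62.9 with TNF-α and 45.9 with EMO, and changed less, with 3229, 3095 and 3176 against 2173, 2319 and 2436 normalized counts (log2 fold change -0.46, SE 0.06, adjusted p = 4.3e-05). Hdac4 had 342 to 372 against 189 to 221 normalized counts and a log2 fold change of -0.80. Hdac9 had at most 3 counts in any library and was not tested.

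Hdac11, the single class IV enzyme, which removes long-chain fatty acyl groups, was the member with the most complete difference. It had 144, 124 and 106 normalized counts with TNF-α and no read in any library with EMO, where a count of 0 allows up to 3 counts. Against this floor of 3 counts per library it was at least 40.6-fold lower (adjusted p = 1.7e-07). Hdac10, a polyamine deacetylase of class IIb, had 518, 477 and 466 against 455, 517 and 532 normalized counts, and the groups overlapped (log2 fold change 0.04, 95% interval -0.14 to 0.22, adjusted p = 0.69). The row named Hdac6, the class IIb tubulin deacetylase, had at most 2 counts in any library. The table holds a further row, LOC108348065 (chrX:15396895-15417146, plus strand), that it describes as histone deacetylase 6, and RefSeq gives its gene ID the symbol Hdac6. This row, found from the descriptions after values were seen and not counted as a member, had 266, 280 and 194 counts with TNF-α and 116, 92 and 133 with EMO, a log2 fold change of -1.05 (SE 0.19, adjusted p = 0.00034).

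Sirtuins gave the clearest increase. All 6 members in the table were tested, 5 were higher and 1 lower, with a median log2 fold change of 1.02 and a summed RPKM of 158 ± 5.94 (SD, n = 3) with TNF-α and 387 ± 12.8 with EMO. Sirt2 (chr1:86948918-86971952, plus strand), a mainly cytosolic deacetylase of tubulin and of histone H4, had 2159, 2032 and 1998 normalized counts with TNF-α and 8723, 8766 and 8693 with EMO. Its log2 fold change was 2.08 (SE 0.06, adjusted p = 1e-10), and the 3 EMO libraries lay within a narrow range. On the RPKM scale Sirt2 went from 55.6 to 235 and became the most abundant member. Sirt4 (chr12:46868416-46876592, plus strand), a mitochondrial sirtuin that restrains glutamine use, had 80.4, 78.0 and 86.7 against 379, 395 and 485 normalized counts and a log2 fold change of 2.36 (SE 0.14, adjusted p = 3.4e-08). Sirt6, a chromatin deacetylase that limits NF-κB target genes and supports DNA repair, had 707, 588 and 662 against 1323, 1486 and 1663 normalized counts (log2 fold change 1.19, SE 0.10, adjusted p = 7.9e-07).

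Sirt7, the nucleolar sirtuin, and Sirt3, the main mitochondrial deacetylase, were higher by 0.84 and 0.72 on the log2 scale, with every EMO library above every TNF-α library. Sirt5, which removes succinyl and malonyl groups in mitochondria, moved the other way, from 1077 to 1117 down to 521 to 566 normalized counts and with a log2 fold change of -0.997 (SE 0.07, adjusted p = 2.6e-07). The 3 mitochondrial sirtuins therefore did not share a direction. No row carried the name Sirt1. A row that the table describes as sirtuin 1, AABR07044925.1, found in the same way as the second Hdac6 row, had 145, 177 and 152 counts with TNF-α and 197, 188 and 138 with EMO. Its groups overlapped, and its log2 fold change was 0.21 (95% interval -0.12 to 0.55, adjusted p = 0.27).

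Of 7 acetyltransferases, 5 were higher and 2 lower, and the summed RPKM was 153 ± 2.31 (SD, n = 3) with TNF-α and 202 ± 1.34 with EMO. Kat8 (chr1:199360645-199372923, plus strand), the MYST enzyme that acetylates histone H4 in the MSL and NSL complexes, had 335, 352 and 403 normalized counts with TNF-α and 938, 941 and 964 with EMO. Its log2 fold change was 1.38 (SE 0.09, adjusted p = 7.8e-08), the largest increase among the acetyltransferases. Kat5, the catalytic subunit of the TIP60 complex, had 1533, 1491 and 1534 against 2366, 2448 and 2410 normalized counts (log2 fold change 0.66, SE 0.06, adjusted p = 8.1e-07) and had the highest RPKM of the acetyltransferases in both groups. Kat5 overlaps Rnaseh2c on the opposite strand, whose counts were 699 to 835 with TNF-α and 30 to 34 with EMO, and the strand setting of the counting is not given in the sources used here. Reads of the overlap therefore cannot be assigned to a strand with certainty.

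Kat7, the HBO1 acetyltransferase, and Kat14, a subunit of the ATAC complex, were higher by 0.67 and 0.47 on the log2 scale. Kat2a (chr10:88611586-88619537, minus strand), the GCN5 enzyme of the SAGA complex, was lower instead, with 1823, 1780 and 1861 normalized counts with TNF-α and 627, 630 and 697 with EMO (log2 fold change -1.48, SE 0.07, adjusted p = 6.2e-09). Kat6a and Kat6b, the paralogous MOZ and MORF enzymes, went in opposite directions. Kat6a had 1467, 1546 and 1397 against 883, 773 and 769 normalized counts (log2 fold change -0.86), and Kat6b had 192, 240 and 227 against 396, 378 and 359 (log2 fold change 0.78). With a correction for gene length, described below, both were higher (0.16 and 1.44).

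**Figure D2:**
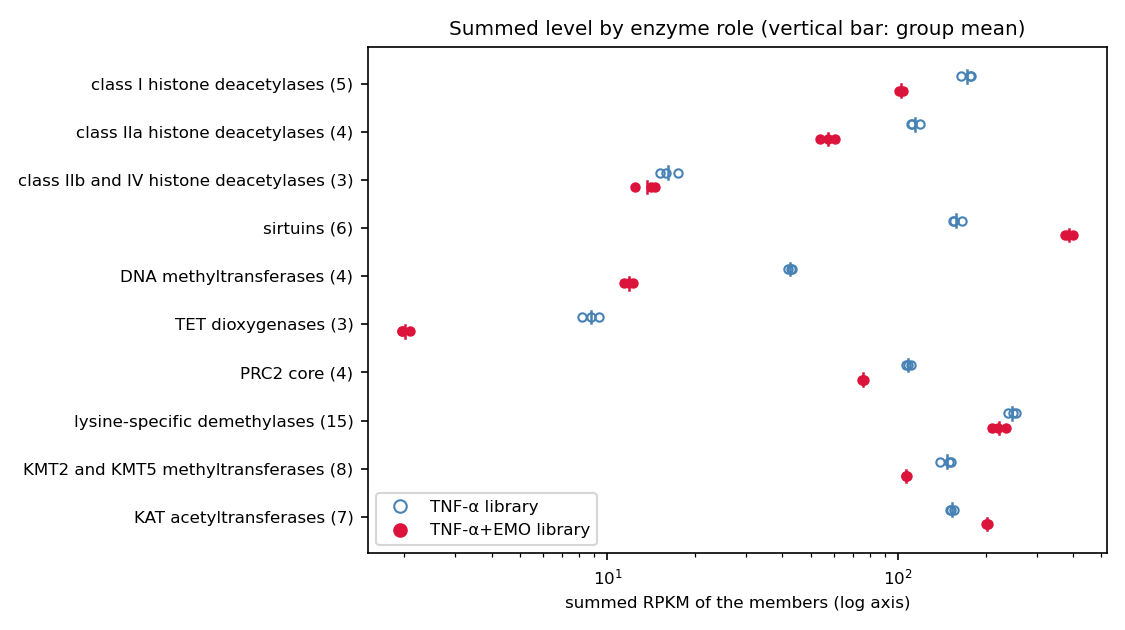
Summed RPKM of the members of each role (log axis) in each library, with the number of members in the table in parentheses and the group mean as a vertical bar (open blue: TNF-α, filled red: TNF-α+EMO). Sirtuins and Kat acetyltransferases lie to the right with EMO and the other roles to the left, and the Tet enzymes have the lowest sums, 8.77 with TNF-α and 2.01 with EMO.

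Among the DNA methyltransferases 2 of the 3 tested members were lower DEGs. Dnmt1 (chr8:21922515-21968495, minus strand), the maintenance methyltransferase that copies CpG methylation after replication, had 3928, 4027 and 3998 normalized counts with TNF-α and 1082, 1047 and 1001 with EMO. Its log2 fold change was -1.93 (SE 0.06, adjusted p = 2.2e-10), and the spread within each group was small beside the gap. Dnmt3a, a de novo methyltransferase, had 192, 204 and 227 against 95.9, 73.7 and 79.5 normalized counts (log2 fold change -1.32, SE 0.16, adjusted p = 1.7e-05). Dnmt3b, the other de novo enzyme, had 23.4 to 35.1 against 18.6 to 29.7 normalized counts, with overlapping groups (adjusted p = 0.35). Dnmt3l, a cofactor of germ cells without catalytic activity, had at most 1 count in any library. The summed RPKM of the family was 42.6 ± 0.629 (SD, n = 3) with TNF-α and 11.8 ± 0.448 with EMO.

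Both tested Tet enzymes, which act against the Dnmt enzymes, were also lower. Tet3 (chr4:115066309-115157263, minus strand) had 724, 751 and 625 normalized counts with TNF-α and 93.9, 108 and 104 with EMO, a log2 fold change of -2.78 (SE 0.11, adjusted p = 1.7e-09). This was the largest decrease among members with reads in every library. Tet2 had 246 to 294 against 128 to 142 normalized counts and a log2 fold change of -0.997 (adjusted p = 2.8e-05). With the correction for gene length Tet2 had -0.06 and was not called. Tet1, the Tet enzyme of embryonic stem cells, had 1 read in all 6 libraries together.

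In the PRC2 core, 2 members were lower and 2 higher, and the catalytic subunits changed in opposite directions. Ezh2 (chr4:77284404-77347011, minus strand), the subunit of dividing cells, had 2185, 2354 and 2246 normalized counts with TNF-α and 730, 623 and 675 with EMO (log2 fold change -1.74, SE 0.07, adjusted p = 2.8e-09). Ezh1, its paralogue in resting cells, had 1614, 1529 and 1501 against 1872, 1975 and 2007 normalized counts (log2 fold change 0.33, SE 0.06, adjusted p = 0.00046). The change of Ezh1 was small but its groups did not overlap. Of the scaffold subunits, Suz12 had 851 to 922 against 485 to 644 normalized counts (log2 fold change -0.66), and Eed had 564 to 605 against 639 to 751 (log2 fold change 0.26, adjusted p = 0.015). The call of Eed was lost without each TNF-α library in turn, when its log2 fold change was 0.17 without replicate 1, 0.19 without replicate 2 and 0.22 without replicate 3 (adjusted p = 0.087 to 0.17).

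The ratio of paralogues within a library does not depend on the scaling between libraries. The genes of a pair differ in length, however, and the trend on gene length, described below, was not removed from these ratios. The RPKM ratio of Ezh2 to Ezh1 was 2.06, 2.34 and 2.27 with TNF-α and 0.593, 0.479 and 0.511 with EMO, so that the more abundant of the pair changed from Ezh2 to Ezh1. The ratio of Hdac1 to Hdac2 likewise crossed 1, from 1.73 ± 0.048 (SD, n = 3) to 0.708 ± 0.040. Dnmt1 stayed above Dnmt3a on the RPKM scale, with a ratio of 14.0 ± 1.07 and 9.20 ± 1.06, and Kat6a stayed above Kat6b with a ratio of 4.35 ± 0.506 and 1.38 ± 0.059. For these 4 pairs the groups did not overlap, and the 2-sided exact permutation p was 0.1 (0.125 after Benjamini-Hochberg adjustment over the 5 pairs), the smallest that 3 libraries against 3 can give. The ratio of Kmt5b to Kmt5c was 2.22 ± 0.252 against 2.03 ± 0.367, with overlapping groups (exact permutation p = 0.5). With the correction for gene length Kmt5b rose more than Kmt5c, whereas without it Kmt5b rose less. In the other 4 pairs the first gene had the lower log2 fold change in both fits. Kat2b, the partner of Kat2a, was not analysed here.

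**Figure D3:**
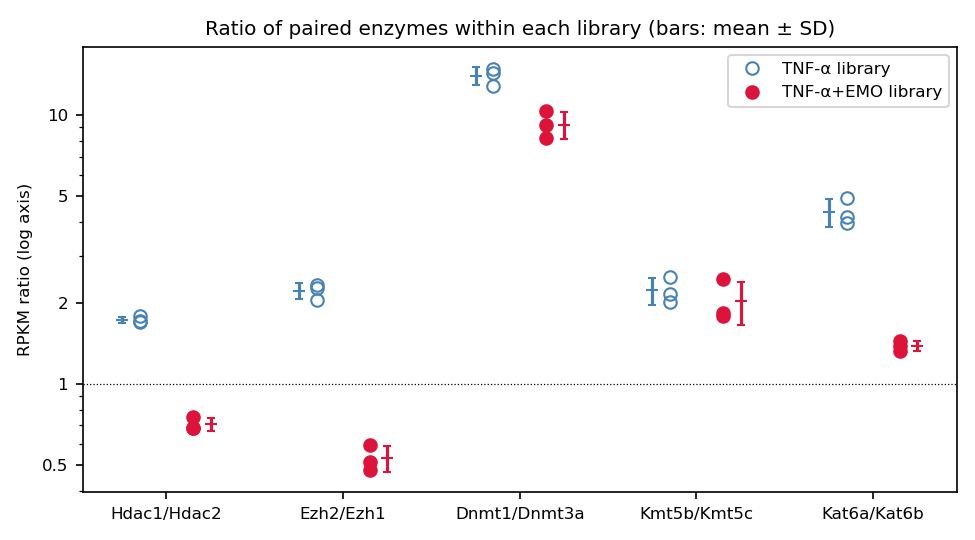
RPKM ratio (log axis) of 5 pairs of related enzymes in each library, with the mean and SD of each group beside the points (open blue: TNF-α, filled red: TNF-α+EMO, dotted line: equal levels). Hdac1/Hdac2 and Ezh2/Ezh1 lie above 1 with TNF-α and below 1 with EMO, and Kmt5b/Kmt5c overlaps.

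Methyltransferases of the Kmt2 family were lower in each of the 5 members, Kmt2a to Kmt2e. Kmt2a (chr8:49114990-49158971, minus strand), the MLL1 enzyme that keeps homeobox genes active, had 1310, 1415 and 1087 normalized counts with TNF-α and 290, 269 and 221 with EMO, a log2 fold change of -2.29 (SE 0.13, adjusted p = 2.4e-08). Kmt2e, a divergent member of the family that binds methylated histone H3, had 2918, 3100 and 2734 against 845, 804 and 673 normalized counts (log2 fold change -1.91, SE 0.09, adjusted p = 5.8e-09). Kmt2b had 1139, 1063 and 921 against 392, 436 and 450 normalized counts (log2 fold change -1.29, SE 0.10, adjusted p = 3.7e-07). In these 3 genes every EMO library was below every TNF-α library. The enhancer methyltransferases Kmt2c and Kmt2d were lower by less, with log2 fold changes of -0.57 and -0.82. With the correction for gene length these became 0.63 and 0.87, both called higher, and Kmt2b had -0.30.

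The Kmt5 enzymes, which methylate histone H4, did not share a direction. Kmt5a, which adds the first methyl group and is tied to the cell cycle, had 1254, 1254 and 1213 normalized counts with TNF-α and 922, 939 and 976 with EMO (log2 fold change -0.39, SE 0.07, adjusted p = 0.00022). RefSeq lists 5 entries whose symbols name them as pseudogenes or relatives of Kmt5a. Reads may have been divided among them, so the value of Kmt5a is uncertain, but their sequences were not compared. Kmt5b had 1535, 1512 and 1455 against 2319, 2112 and 1998 normalized counts (log2 fold change 0.51, SE 0.07, adjusted p = 4e-05), and Kmt5c had 301, 278 and 230 against 374, 466 and 431 (log2 fold change 0.65, SE 0.13, adjusted p = 0.00062). Kmt5b and Kmt5c, which add the further methyl groups, thus both rose.

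The lysine demethylases were mixed. Of 15 members 14 were tested, 5 were higher, 7 lower and 2 not called, and the summed RPKM was 247 ± 8.34 (SD, n = 3) with TNF-α and 222 ± 12.3 with EMO. Kdm7a (chr4:66922013-66955732, minus strand), a PHD and Jumonji enzyme that erases repressive marks, was the single higher DEG, with 172, 198 and 160 against 439, 346 and 322 normalized counts (log2 fold change 1.06, SE 0.15, adjusted p = 4.2e-05). Kdm3b had 1783, 1780 and 1779 normalized counts with TNF-α and 796, 841 and 780 with EMO, a log2 fold change of -1.14 (SE 0.06, adjusted p = 2.4e-08). Its homologue Kdm3a, a target of hypoxia signalling, rose instead, by 0.46 on the log2 scale. Kdm2b, which brings Polycomb proteins to CpG islands, had 940, 871 and 952 against 433, 406 and 438 normalized counts (log2 fold change -1.11, SE 0.08, adjusted p = 2e-07). Kdm2a, the demethylase with the highest RPKM in the TNF-α group, had 7450, 7491 and 6876 against 4620, 4091 and 4326 normalized counts (log2 fold change -0.74, SE 0.07, adjusted p = 1.1e-06). The counts of calls in this family depend on the correction for gene length, described below, with which Kdm2a had 0.084 and was not called.

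The flavin-dependent demethylases differed, since Kdm1b had a log2 fold change of -1.04 and Kdm1a (LSD1) one of 0.02 with overlapping groups (adjusted p = 0.81). In the Kdm4 family, Kdm4a and Kdm4c had log2 fold changes of 0.20 and 0.74, Kdm4b had -0.52, and Kdm4d had no read in any library. The call of Kdm4a (adjusted p = 0.0093) was lost when any 1 TNF-α library was left out, with log2 fold changes of 0.12, 0.16 and 0.090 without replicates 1, 2 and 3 (adjusted p = 0.063 to 0.24). Kdm5a and Kdm5b, which erase methylation at active promoters, had log2 fold changes of -0.43 and -0.61. In the length-corrected fit Kdm5a (0.82) and Kdm4b (0.39) were called higher, and Kdm5b (0.14) was not called. Kdm4c had 1.22 in that fit and was a higher DEG. Kdm6b, the inducible demethylase of inflammatory gene activation, had 310 to 438 against 441 to 497 normalized counts, and although the groups did not overlap its log2 fold change of 0.25 was not called (adjusted p = 0.089). Kdm8 was higher with a log2 fold change of 0.47.

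The order of the members by level was changed as well. On the RPKM scale the TNF-α group was led by Hdac1 (77.4), Kmt5a (74.5), Hdac5 (62.9), Kdm2a (62.4) and Sirt2 (55.6). In the TNF-α+EMO group Sirt2 led with 235, followed by Kat5 (75.2), Kmt5a (56.8), Kat7 (53.7) and Sirt6 (52.1). By rank of mean RPKM among the 59 members, Hdac1 went from place 1 to place 17, Ezh2 from 7 to 24, Hdac7 from 8 to 30 and Dnmt1 from 13 to 27. In the other direction Sirt6 went from 20 to 5, Kat8 from 27 to 12 and Sirt4 from 50 to 23.

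Gene length moved with these values. Over all tested genes, divided by deposited gene length into 5 classes of about equal size, the median log2 fold change was 0.40 in the shortest class and -0.63 in the longest, and lower DEGs made up 20.5% and 40.2% of these classes. The members were long, with a median length of 3341 bases against 2248 for all tested genes, and 25 of the 54 lay in the longest class. Members called lower had a median length of 4313 bases and members called higher one of 2445. The 25 long members had a median log2 fold change of -0.80, and 9 of them were lower DEGs, whereas the 9 members of the second-shortest class had a median of 0.72. A trend on gene length was then removed from each library, an alternative chosen after seeing the data. This fit called 25 members higher and 22 lower, with 8 higher and 11 lower DEGs and a median log2 fold change of 0.11. Over all 13614 tested genes the same fit called 5685 higher and 5302 lower, with 2658 higher and 3554 lower DEGs. The median log2 fold change of all tested genes was then 0.059.

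Under that length offset the called members Kdm2a, Kmt2d, Kdm5a, Kat6a, Kdm5b, Kdm4b and Kmt2c changed sign, and all 7 are long genes. Hdac8 and Hdac10, called in neither fit, also crossed 0. The decreases of Hdac1, Hdac7, Dnmt1, Tet3, Ezh2, Kat2a, Kmt2a and Kmt2e kept their direction and their call, as did the increases of Sirt2, Sirt4, Sirt6 and Kat8. Several of these decreases were smaller, since Kmt2a had -1.02, Kmt2e -1.02 and Dnmt1 -1.22. Of the other lower DEGs, Dnmt3a had -0.87, Kdm2b -0.66, Kdm1b -0.61, Kdm3b -0.36 and Kmt2b -0.30, all still called. Tet2 (-0.06, adjusted p = 0.68) and Eed (0.18, adjusted p = 0.057) lost their calls, and Hdac3 (-0.21, adjusted p = 0.0086), Kdm1a (0.19, adjusted p = 0.024) and Kdm6b (0.67, adjusted p = 4e-04) gained one. The part of gene length in the members' values was not tested. The TNF-α+EMO libraries also differed among themselves along length, with the longest class deviating from the group mean by 0.070, 0.0026 and -0.077 on the log2 scale in replicates 1, 2 and 3.

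**Figure D4:**
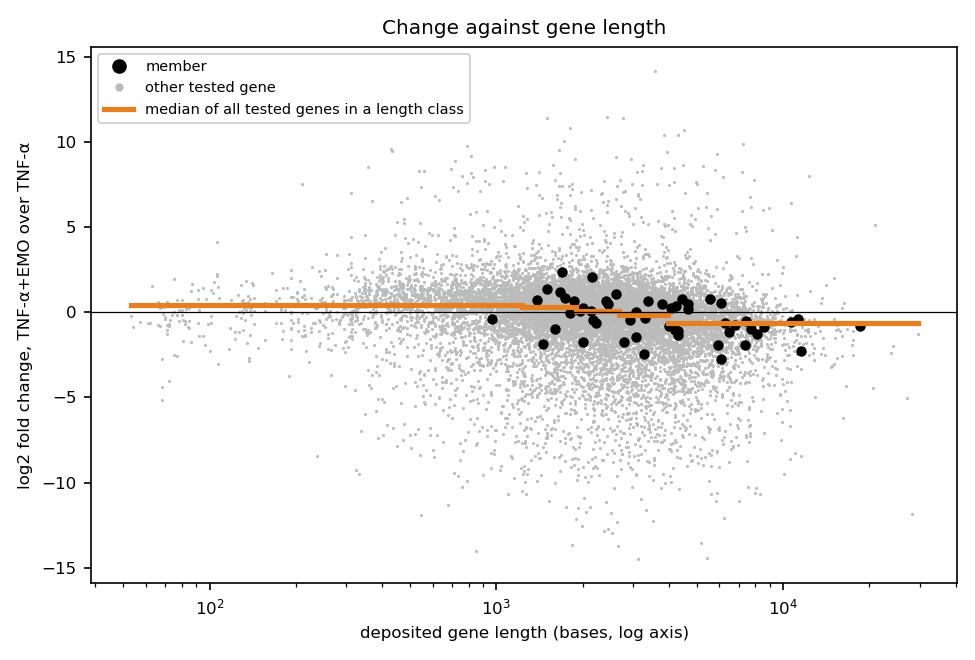
Log2 fold change of each tested gene against its deposited length (log axis), with members in black, other genes in grey and the median of all tested genes in each of the 5 length classes as an orange line; Hdac11, at 0 in 1 group, is left out. The orange line steps down from 0.40 to -0.63, and most members lie in its 3 right-hand steps.

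**Figure D5:**
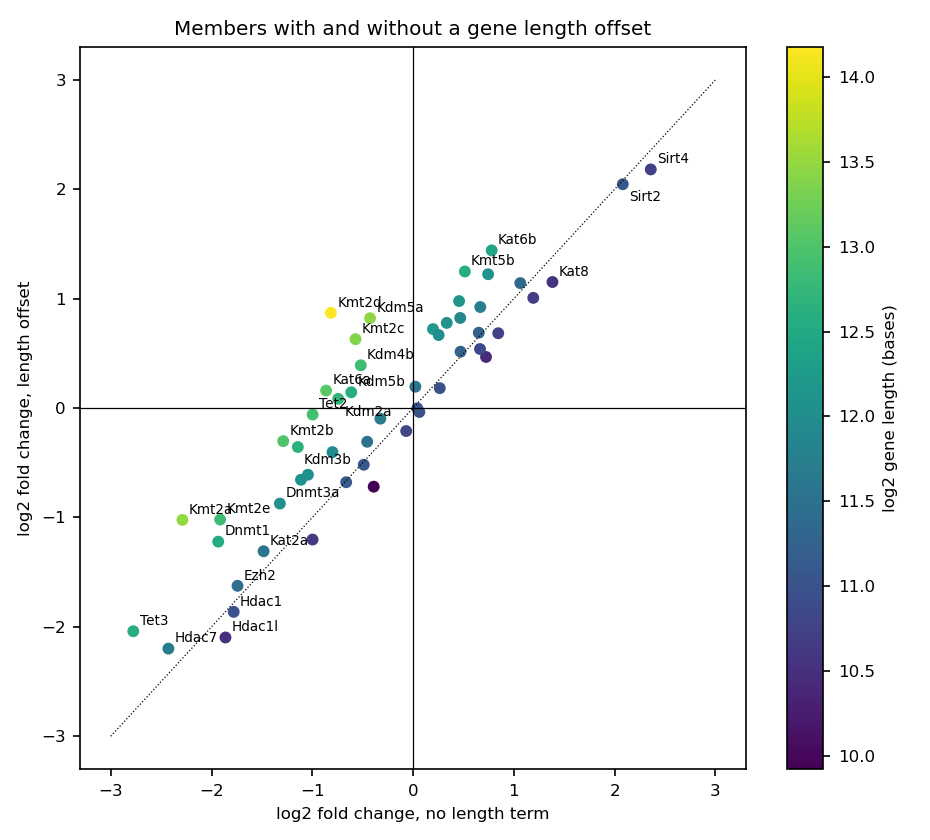
Log2 fold change of the tested members except Hdac11 without (x axis) and with (y axis) the length offset, coloured by log2 of the gene length in bases, with a dotted line of equal values. The longest members lie above the line, 7 of them in the upper left part, above 0 only with the offset, and Sirt2, Sirt4, Hdac1 and Hdac7 lie close to the line.

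Promoters were compared only as a description. Of the members 49 had a RefSeq promoter of 300 bases (250 before and 50 after the start) and 42 of these had a single start. The median number of CG dinucleotides was 20 in these 42, 21 in the 8635 tested genes with a single start and 7 in all 33469 promoters. Members called lower had a median of 29 (20 promoters) and members called higher one of 17 (13 promoters). An E2F motif, TTTCCCGC, TTTGGCGC or TTTCGCGC on either strand, occurred in 5 of the 42 (11.9%), against 3.69% of the tested genes and 1.72% of all promoters. These 5 were Dnmt1, Ezh2 and Suz12, which were lower, Kmt5c, which was higher, and Kdm1a, which was not called. The CCAAT box (CCAAT) occurred in 50.0% of the members and 38.4% of the tested genes (37.5% of all promoters), the GC box (GGGCGG) in 71.4% and 64.0% (33.1%), and an ETS motif (CCGGAAGT) in 7.14% and 8.81% (3.81%). Both strands were searched, and none of these motifs contains another.

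Partners and further enzymes of the same pathways were counted in lists written from general knowledge, and a row is called by the same rule as a member. For every list below, the shares to compare with are those of all tested genes, 39.4% higher and 41.4% lower. Their median log2 fold change was -0.01. The list values are given without the correction for gene length. The other histone lysine methyltransferases were mostly lower, with 13 of 19 rows lower and 3 higher (median log2 fold change -0.48). Setd1b, the catalytic subunit of a further COMPASS complex, had -2.33 and Nsd1 had -1.17, while Smyd5 and the H3 methyltransferase Dot1l had 2.22 and 1.09. Of 10 other acetyltransferases and coactivators, 8 were lower and 2 higher (median -0.89), and the lowest was Hat1, which acetylates newly made histone H4, with -2.30. Arginine methyltransferases and JMJD proteins showed 8 higher and 6 lower of 17 rows (median 0.15), led by Jmjd6 with 1.69.

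The complexes in which the members work gave a mixed picture. Of 27 rows of HDAC corepressor complexes 17 were lower and 7 higher (median -0.44). Chd3 of NuRD had -2.01, whereas Gps2 had 1.27. The list of accessory PRC2 and PRC1 subunits was lower in 13 and higher in 6 of 25 rows (median -0.29). It also holds Bap1, Asxl1 and Asxl2, which are subunits of neither complex. Of these, Bap1 and Asxl1 were among the higher rows and Asxl2 was not called. Phf19, which brings PRC2 to CpG islands, went from 850 to 22.2 mean normalized counts (log2 fold change -5.25), and the PRC1 ligase Ring1 had 1.60. Partners of the Kmt2 enzymes were lower in 7 and higher in 3 of 12 rows (median -0.40), with Psip1, a chromatin tether of Kmt2a, at -2.29. Partners of the Kat enzymes were instead higher in 18 and lower in 9 of 34 rows (median 0.27), with Jade3 at 2.29 and Supt3h at 1.57, and with Jade2 at -3.34 and Trrap at -1.86.

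Among partners and readers of DNA methylation 8 of 15 rows were lower and 4 higher (median -0.56). Uhrf1, which brings Dnmt1 to replicated DNA, had 2539 against 248 mean normalized counts (log2 fold change -3.36, adjusted p = 1.6e-11), and Gadd45a, a stress-induced factor linked to DNA demethylation, had 680 against 33386 (log2 fold change 5.62, adjusted p = 2.7e-10). Bromodomain and heterochromatin readers were lower in 10 and higher in 1 of 14 rows (median -1.08), with Atad2 at -2.87. Enzymes that supply cofactors were evenly divided, with 7 higher and 7 lower of 15 rows (median -0.15). Of these, Acss2, which makes acetyl-CoA from acetate, had -3.46, Nnmt, which uses up methyl donor, had 2.33, and Mat2b, a subunit of the methyl donor synthase, had 2.14.

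Markers of replication and mitosis were lower with EMO. Of 19 such genes tested 18 were lower, 16 of them DEGs, with a median log2 fold change of -4.21, and Top2a went from 8257 to 15.7 mean normalized counts. Dnmt1, Ezh2, Kmt5a and Hdac1, named here after their values were seen, are known to be higher in dividing cells, and their log2 fold changes lay between -1.93 and -0.39. Because of that choice their shared direction is no result about the members, of which 19 were called higher and 29 lower. The part of cell division in the members' values was not tested.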

How the data were processed

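Libraries of rat RA-FLS were analysed, 3 of the TNF-α group and 3 of the TNF-α+EMO group, as the sample labels name them. The authors deposited raw counts per gene and library, made from poly(A)-selected libraries. The submitters' processing notes name FastQC, Trimmomatic, HISAT2 and the build Rnor_6.0; the counting program and strand setting are not given in the sources used here. The authors also deposited FPKM values, and columns of their own comparison (a mean score per group, a log2 fold change and p-value columns); these 11 columns were not used.

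Genes that reached 10 counts in 3 or more libraries were tested with edgeR 4.0.16 in R 4.3.3 (TMM scaling, robust quasi-likelihood fit, Benjamini-Hochberg adjustment over all tested genes). The biological coefficient of variation (common estimate) was 0.121. Normalized counts were scaled by TMM to the mean library size, and RPKM was computed from these counts and the deposited gene length. A floor of 3 counts per library covers counting error only, because the reads carry no molecular identifiers and several may stem from 1 molecule. Fits were tested on simulated data. Promoters came from RefSeq (GRCr8).

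The members and lists were chosen with earlier results of these data known. Per-library values are given for up to 12 members per direction with an adjusted p under 0.05, an absolute log2 fold change over 1, a mean of at least 100 normalized counts and no overlap between groups, for the member of each role with the highest RPKM, and for preset pairs of paralogues. Related genes were named by the same thresholds, at most 2 per direction and list. The values of 1 related gene are not reported here. Other members are given by ranges or fold changes, Hdac11 with all values since it was at 0 in 1 group. Alternatives were DESeq2 1.42.0, other scalings, filters and thresholds, a replicate block, leaving out each library, members that overlap other genes left out, and the length offset, a lowess trend per library added after seeing the data.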

Additional observations from a re-analysis of the deposited data

How the results depend on the processing

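Of 860 values of the 54 tested members under the alternatives, 824 kept their direction and their side of the threshold, 11 lost and 4 gained a call and 21 changed sign, 7 of members called in the comparison and 14 of members not called. For 39 members no alternative changed the call or the sign, and 315 of 330 counts over the related lists stayed within 1.5 times. The 7 changes of sign of called members came with the length offset, where the log2 fold change was 0.084 for Kdm2a, 0.87 for Kmt2d, 0.82 for Kdm5a, 0.16 for Kat6a, 0.14 for Kdm5b, 0.39 for Kdm4b and 0.63 for Kmt2c. With this offset 8 members and 2658 of all 13614 tested genes were higher DEGs, and the median was 0.11 for the members and 0.059 for all tested genes. The median of the members was -0.48 with upper quartile scaling and -0.55 with library totals, which shifts the median of all tested genes to -0.125, and it ranged from -0.54 to -0.42 when each library was left out. An absolute log2 fold change over 2 left 2 higher and 4 lower DEGs among the 54 tested members, and 809 and 2255 among all 13614 tested genes. One over 0.5 gave 13 and 25 among the members, and 4376 and 4915 among all tested genes. Eed and Kdm4a lost their calls with library totals, and Eed also at an adjusted p under 0.01. Hdac3 gained a call with library totals, at -0.18 (adjusted p = 0.027 by edgeR). Of the members not called, Kdm1a was at -0.019 with upper quartile scaling, -0.089 with library totals and -0.078 to 0.13 when each library was left out. Hdac10 was at -0.072 with library totals, -0.0021 with the length offset and -0.062 to 0.13 without each library, and Hdac8 at -0.053, -0.036 and -0.097 to 0.17 in the same order.

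The replicate numbers did not mark shared handling in the labels, and deviations of same-numbered libraries correlated by 0.0196, -0.000655 and 0.0565. With the replicate block, 19 members were called higher and 29 lower, with a median of -0.44. Depth limits Hdac9, Dnmt3l, Tet1, Kdm4d and the row named Hdac6, which had at most 3 counts in any library.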
